A study of Mus musculus with 20 samples.

Results

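B-cell follicle genes were followed in the distal colon (DC) of mice fed resistant potato starch (RPS). The 9 genes were Ms4a1, Cd79a, Cd79b, Cd22, Pax5, Cr2, Fcer2a, Cxcr5 and Cxcl13, chosen by symbol and matched by Ensembl identifier to the count table, which held 26619 genes. All 9 were found, and all 9 were among the 17893 genes that passed the filter on low counts. C57BL/6 mice received the Total Western Diet (TWD), a rodent diet modelled on American nutrient intake, for 6 weeks from weaning. They then stayed on the TWD alone (0% RPS) or received the TWD with 2, 5 or 10% RPS for another 3 weeks, with 5 mice per diet. The labels call the starch raw potato starch. RNA came from an undissected section of colon taken near the anal end, 1 library per mouse, and mice are named here by the code in their titles. For 3 mice (RS10_717, RS10_725 and RS10_748) the description and treatment labels gave different RPS levels, and the description was used.

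Isolated lymphoid follicles and colonic patches are small clusters of B cells held in a mesh of stromal cells below the epithelium. Follicular stromal cells secrete the chemokine CXCL13, and B cells that carry its receptor CXCR5 gather around them. The B cells carry CD20 (Ms4a1), the signalling chains of the B-cell receptor (Cd79a and Cd79b) and the inhibitory receptor CD22. Pax5 encodes the transcription factor that holds cells in the B lineage and is switched off in plasma cells. Cr2 encodes the complement receptors CD21 and CD35 of B cells and follicular dendritic cells, and Fcer2a encodes the low-affinity IgE receptor CD23 of resting follicular B cells.

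The 9 genes lie on 8 chromosomes of the mouse assembly GRCm39, and Cd79a (chr7:24596740-24601622) and Cd22 (chr7:30564827-30579767) share chromosome 7. Sequence upstream of the start of transcription is shown for 2 genes, Cd79b, which is a B-cell gene, and Cxcl13, which is made by stromal cells, since they differed in how closely they followed the other members. Each window is the 250 bases before the start of the GENCODE canonical transcript, read 5′ to 3′ on the strand of the gene from GRCm39, and neither overlaps an annotated exon.
Cd79b, chr11:106205589-106205838, minus strand: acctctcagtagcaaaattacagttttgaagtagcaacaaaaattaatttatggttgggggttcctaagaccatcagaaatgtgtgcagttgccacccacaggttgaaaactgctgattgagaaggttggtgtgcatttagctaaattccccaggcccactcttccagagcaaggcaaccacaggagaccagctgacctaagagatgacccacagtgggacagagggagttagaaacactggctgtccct
Cxcl13, chr5:96104560-96104809, plus strand: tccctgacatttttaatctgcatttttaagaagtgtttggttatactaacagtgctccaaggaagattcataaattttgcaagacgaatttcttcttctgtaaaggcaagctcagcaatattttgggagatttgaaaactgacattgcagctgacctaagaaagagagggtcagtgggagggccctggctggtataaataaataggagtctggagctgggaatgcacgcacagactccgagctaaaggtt
Both strands of these windows were searched for the octamer ATGCAAAT, for CCCNNGGGA (an EBF-like pattern) and for GAGGAAGT (an Ets-like pattern), which do not overlap each other in letters. None of the 3 patterns matched in either window, so no base is in capitals. In the same search of the windows of all 9 members, the only match was the EBF-like pattern in Ms4a1, at bases -46 to -38 from the start. Among 17835 windows of protein-coding genes the octamer was present in 253, the EBF-like pattern in 6.25% and the Ets-like pattern in 2.13%.

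One library stood apart. Mouse RS10_708, fed 0% RPS, had the lowest level of 8 of the 9 genes among the 20 mice, whereas 7.32% of all tested genes were lowest in that mouse. Its level of Ms4a1 was 1.20 CPM (counts per megacount of scaled library size, 40 reads, with a 95% exact Poisson interval of 0.861 to 1.64 CPM), against 5.38 to 17.0 CPM in the other 19 mice. Its level of Cxcr5 was 0.452 CPM (15 reads, interval 0.253 to 0.745 CPM), against 2.46 to 7.04 CPM. The intervals cover counting error only. The median of the other 19 mice was 5.64 times (Cd79b) to 11.2 times (Cxcr5) the level in RS10_708 for these 8 genes. For Cxcl13 the level in RS10_708 was 8.82 CPM, the third lowest of 20, and the median of the others was 1.53 times that level. Among 25 other B-cell genes, 19 were lowest in RS10_708. So were 6 of 20 genes that organise lymphoid tissue, 4 of 12 plasma cell genes, 3 of 17 T-cell genes and 2 of 11 germinal centre genes, and none of 7 epithelial, 9 follicle-associated epithelial or 6 smooth muscle genes. In whole tissue, fewer B cells and less RNA per B cell cannot be told apart. Tests of diet are given below with and without this mouse.

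Total counts ran from 18.4 to 34.97 M (megacounts) per mouse, and the 0% RPS libraries were deeper (32.8 ± 1.35 M, SD, n = 5) than those at 10% RPS (24.3 ± 3.42 M). The 9 genes had 15 to 1017 reads per mouse, so that in each mouse every member was above the limit of 3 counts. Markers of the colon wall, Epcam of epithelium and Myh11 of smooth muscle, were at 1440 to 1788 CPM and 1531 to 3923 CPM. Mouse RS10_721 held pancreatic transcripts (7 marker genes summing to 5270 CPM, against 367 to 793 CPM in the others) and RS10_715 held those of red blood cells (349 CPM, against 12.7 to 83.7 CPM). Their part in the results was not tested. A fit by edgeR without these mice, RS10_708 and RS10_784 (793 CPM of pancreatic markers) called 0 of the 9 genes. Over all 17980 genes tested, that fit called 0 at each RPS level and in the test of any diet difference. It called 11 in the linear trend, so 0 of 9 does not set these genes apart.

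Levels of different genes can be compared only per length, here in TPM, counts divided by length and scaled to a fixed total, over the union of each gene's exons. Cd79a was highest at 49.6 ± 17.8 TPM (SD, n = 20), followed by Cxcl13 at 41.1 ± 11.6 TPM and Cd79b at 32.9 ± 11.5 TPM. Far below came Fcer2a at 9.73 ± 4.15 TPM, Cd22 at 8.50 ± 3.33 TPM, Ms4a1 at 5.41 ± 2.10 TPM and Cxcr5 at 4.83 ± 1.74 TPM. Cr2 was at 3.48 ± 1.28 TPM and Pax5 at 3.28 ± 1.21 TPM. The order held within each of the 20 mice between Cd79b and Fcer2a, Cd22 and Ms4a1, and Cxcr5 and Cr2. The neighbours Cr2 and Pax5 were not separated, since Cr2 was above Pax5 in 11 of 20 mice, nor were Fcer2a and Cd22, where Fcer2a was above in 13 of 20.

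**Figure D1:**
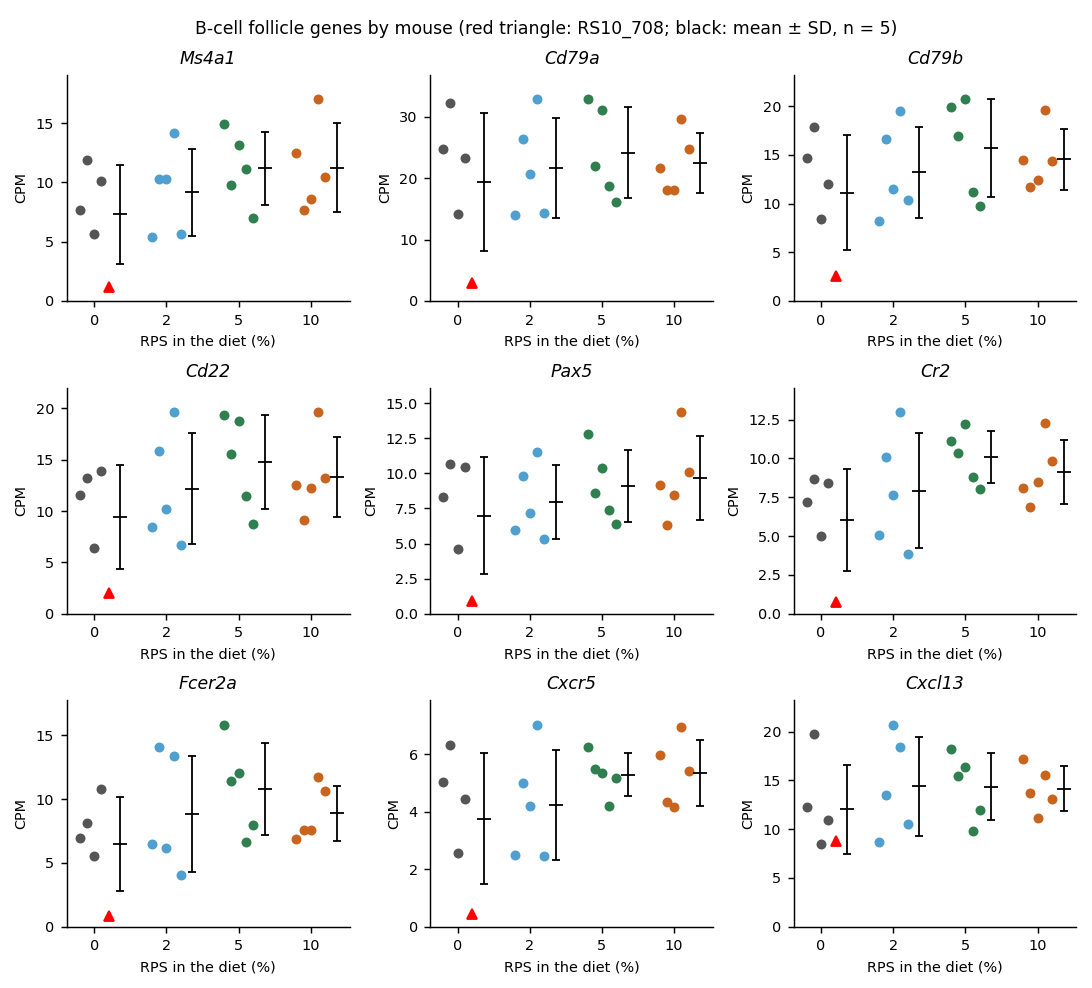
Expression of the 9 genes in CPM (vertical axis, from 0) in each mouse, by RPS in the diet (horizontal axis), with the mean and SD of 5 mice in black. Mouse RS10_708 (red triangle, 0% RPS) lies below all other mice for every gene except Cxcl13, and the remaining mice of the 4 diets overlap.

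Whether RPS altered the B-cell genes was asked at each level against 0% RPS. Ms4a1, which marks mature B cells, was at 7.70, 11.9, 5.62, 10.1 and 1.20 CPM in mice RS10_701, RS10_703, RS10_704, RS10_707 and RS10_708, fed 0% RPS. Mice fed 10% RPS had 12.5, 7.67, 8.61, 17.0 and 10.5 CPM (RS10_725, RS10_727, RS10_729, RS10_731 and RS10_784). The groups overlapped, with 3 of the 5 control mice inside the range of the mice fed 10% RPS. The mean was 7.31 ± 4.17 CPM at 0%, 9.16 ± 3.67 CPM at 2%, 11.2 ± 3.08 CPM at 5% and 11.2 ± 3.72 CPM at 10% RPS (SD, n = 5 each).

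The signalling chains of the B-cell receptor varied as widely. Cd79a ranged from 2.95 to 32.2 CPM at 0% RPS (median 23.2 CPM), from 13.9 to 32.9 CPM at 2% (median 20.6), from 16.2 to 32.9 CPM at 5% (median 21.9) and from 18.04 to 29.7 CPM at 10% (median 21.7). Cd79b ranged from 2.56 to 17.9 CPM at 0% RPS and from 11.7 to 19.6 CPM at 10% RPS. For both genes all 4 diets overlapped.

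Among the genes of B-cell regulation, Cd22 had a mean of 9.41 ± 5.07 CPM at 0% RPS and 13.3 ± 3.88 CPM at 10% RPS. Pax5 had 6.99 ± 4.19 CPM and 9.67 ± 2.98 CPM at these levels. The highest level of both was in RS10_731, fed 10% RPS, at 19.7 CPM for Cd22 and 14.4 CPM for Pax5. For Cd22, RS10_716 (2% RPS) was also at 19.7 CPM when rounded, and RS10_717 (5% RPS) was at 19.3 CPM. The ranges of the diets overlapped for both genes.

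The genes of the follicular B-cell surface, Cr2 and Fcer2a, were highest in mean level at 5% RPS, as were Cd79a, Cd79b and Cd22. Cr2 had means of 6.03 ± 3.27 CPM at 0%, 7.93 ± 3.72 CPM at 2%, 10.1 ± 1.69 CPM at 5% and 9.12 ± 2.06 CPM at 10% RPS. The 5 mice fed 5% RPS had 8.03 to 12.2 CPM and those fed 0% RPS 0.783 to 8.70 CPM, so that 2 of the control mice lay inside the range of the treated mice. Fcer2a had means of 6.46 ± 3.69, 8.82 ± 4.58, 10.8 ± 3.62 and 8.89 ± 2.15 CPM in the same order of diets.

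The receptor and its ligand behaved differently in the mouse that stood apart. Cxcr5 was at 5.04, 6.32, 2.58, 4.43 and 0.452 CPM in the mice fed 0% RPS and between 4.18 and 6.94 CPM in those fed 10% RPS. Cxcl13 was at 12.3, 19.7, 8.51, 10.9 and 8.82 CPM in the mice fed 0% RPS and between 11.2 and 17.2 CPM in those fed 10% RPS. Its mean was 12.0 ± 4.55 CPM at 0% and 14.4 ± 5.09, 14.3 ± 3.42 and 14.1 ± 2.32 CPM at 2, 5 and 10% RPS.

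None of the 9 genes was called by edgeR (adjusted p of at most 0.05 and a fold change of at least 1.5) at 2, 5 or 10% RPS. None had an unadjusted p under 0.05, where 15.2% of all tested genes had one at 10%, 9.19% at 5% and 1.41% at 2% RPS, and DESeq2 called 0 of the 9 in each comparison. Over all tested genes, edgeR called 0.0391% at 10%, 0% at 5% and 0% at 2% RPS, and DESeq2 called 1.21, 0.156 and 0.00386%. With so few calls among all genes, 0 of 9 called does not set these genes apart. The test of any diet difference called 0 of the 9 (0.0727% of all genes by edgeR and 2.01% by DESeq2), as did the linear trend over RPS percent (2.10% and 6.02%). The trend calls over all genes were unstable: edgeR called 375 with 20 mice, 91 (0.506%) without RS10_708, 24 without RS10_784 and 1148 without RS10_727, and 0 when mice were grouped by their treatment label. In each of these fits 0 of the 9 genes had a called trend.

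The fold changes were all above 0 but small against their errors. At 10% RPS the log2 fold changes ran from 0.21 (Cd79a, SE 0.42) to 0.62 (Ms4a1, SE 0.42), with a median of 0.47 over the 9 genes and −0.01 over all tested genes, and the lowest edgeR adjusted p was 0.506. At 5% RPS they ran from 0.25 (Cxcl13, SE 0.25) to 0.75 (Cr2, SE 0.42, adjusted p = 0.605 by edgeR), with a median of 0.50. At 2% RPS they ran from 0.15 (Cd79a) to 0.45 (Fcer2a), with a median of 0.26 and an edgeR adjusted p of 0.9997 for each. The 3 comparisons share the control mice, and the 9 genes move together, so that the shared sign is not 9 separate results. The 95% intervals were wide: for Ms4a1 at 10% RPS the fold change lay between 0.839 and 2.83, and for Fcer2a at 5% RPS between 0.861 and 3.24. The interval was narrowest for Cxcl13, between 0.823 and 1.68 at 10% RPS.

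Without RS10_708 the fold changes came closer to 0. At 10% RPS they ran from −0.06 (Cd79a) to 0.36 (Ms4a1), with a median of 0.19. At 5% RPS the median was 0.24 with all 9 above 0, and at 2% RPS it was 0.05 with 5 of 9 above 0. None was called at any level, in the trend or in the test of any diet difference, and the lowest edgeR adjusted p was 0.729 at 10% and 0.769 at 5% RPS. Over all genes edgeR then called 0.0333% at 10%, 0% at 5% and 0% at 2% RPS, and 0.0167% in the test of any diet difference. The mean of Ms4a1 at 0% RPS became 8.84 ± 2.76 CPM (n = 4).

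**Figure D2:**
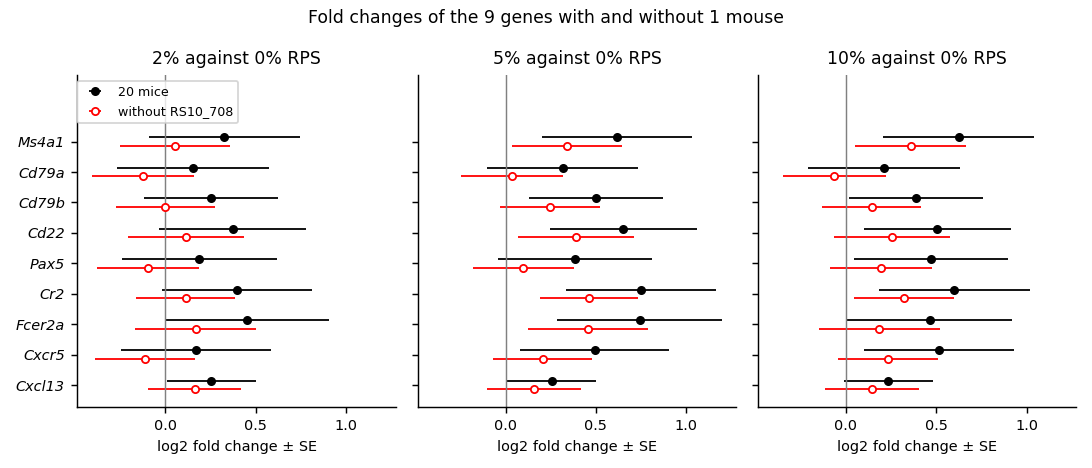
Log2 fold change ± SE (horizontal axis) of each gene at 2, 5 and 10% against 0% RPS, from the fit to 20 mice (black) and to 19 mice without RS10_708 (red, open). Every black point lies above 0, the red points lie closer to 0, and Cd79a at 10% RPS moves from 0.21 to −0.06.

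The share of the variance that lay between diets was 9.31% for Cxcl13, 10.5% for Cd79a and up to 24.6% for Cr2, where the median tested gene had 16.3%. Without RS10_708 it was 2.91% for Cd79a, 3.94% for Cxcl13 and 20.5% for Cr2, and the median was 16.5%.

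Mice of the same diet differed more in these genes than in most. The within-diet SD of log2 CPM was 0.67 (Cd79b) to 0.86 (Fcer2a) for 8 genes and 0.42 for Cxcl13, where the median tested gene had 0.22. These 8 were between percentiles 96.0 and 98.3 of all tested genes, and Cxcl13 was at percentile 81.0. Among the 200 tested genes nearest in mean level, the 9 genes were between percentiles 93.5 and 99.5. Without RS10_708 the 8 were between percentiles 83.7 and 90.4 of all genes and between 85.0 and 98.5 of the 200 nearest. The percentiles are descriptions and carry no test.

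**Figure D3:**
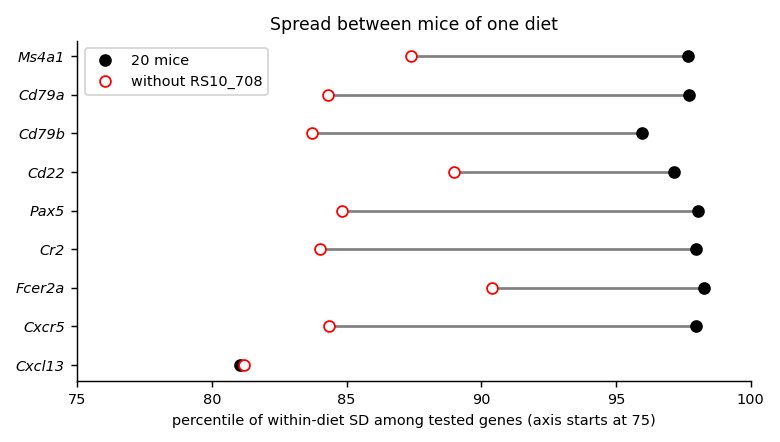
Percentile of the within-diet SD of log2 CPM among the tested genes (horizontal axis, which does not start at 0) for each of the 9 genes, with 20 mice (black) and without RS10_708 (red, open). The open points of 8 genes fall to between 83.7 and 90.4, and Cxcl13 stays near 81.

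Among the other 19 mice, the summed level of the 9 genes ran from 60.8 CPM (RS10_704, 0% RPS) to 151 CPM (RS10_717, 5% RPS). Low sums were also found in RS10_748 (63.2 CPM) and RS10_709 (64.8 CPM), both fed 2% RPS, and high sums in RS10_716 (150 CPM, 2% RPS) and RS10_731 (147 CPM, 10% RPS). Mice at both ends were thus found within 1 diet. The lowest sum at 5% RPS was 81.1 CPM and at 10% RPS 85.4 CPM.

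Correlations over the 20 mice were computed for 90 pairs of genes, 36 of them between members, with 100000 permutations and Benjamini-Hochberg adjustment over the 90. The 28 pairs among the 8 genes other than Cxcl13 had Pearson's r from 0.905 to 0.978 and Spearman's rho from 0.686 to 0.956. The weakest was Ms4a1 with Fcer2a (r = 0.905, adjusted permutation p = 7.5e-05, rho = 0.686, adjusted permutation p = 0.00263). Without the 2 mice farthest from the median of the first gene, r over the 28 pairs was 0.712 to 0.937, and without RS10_708 it was 0.714 to 0.950. With each diet's mean removed, r was 0.888 to 0.982. The relation among the B-cell genes therefore held within diets and without the mouse that stood apart.

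Cxcl13 followed the B-cell genes less closely. Its r with the 8 others was 0.532 (Fcer2a, adjusted permutation p = 0.0140, rho = 0.555, adjusted permutation p = 0.0241) to 0.703 (Cd79b, adjusted permutation p = 0.000202, rho = 0.750, adjusted permutation p = 0.000521). Without RS10_708 these were 0.472 and 0.755, and the pair with Fcer2a no longer passed (adjusted permutation p = 0.0734). With diet means removed r over the 8 pairs was 0.470 to 0.669, and without the 2 farthest mice 0.413 to 0.770.

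**Figure D4:**
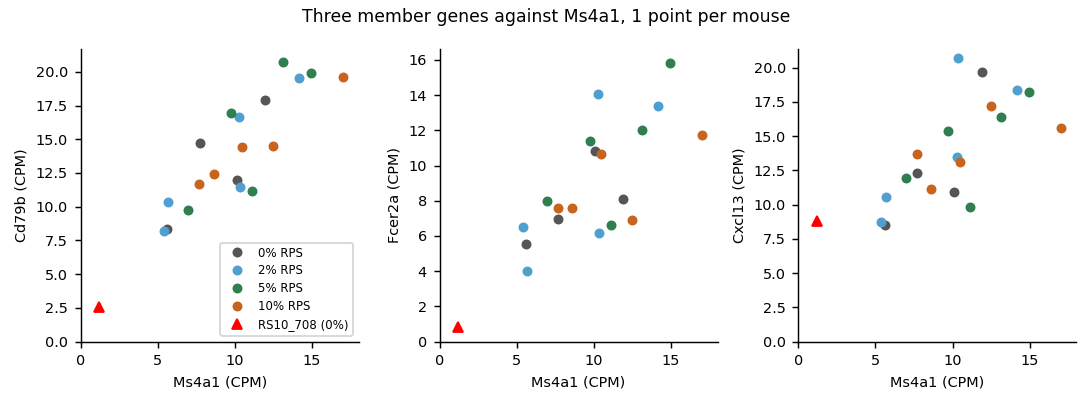
CPM of Cd79b, Fcer2a and Cxcl13 (vertical axes) against CPM of Ms4a1 (horizontal axes), 1 point per mouse coloured by diet. Cd79b follows Ms4a1 closely, Fcer2a and Cxcl13 scatter more, and RS10_708 (red triangle) is near the origin for Cd79b and Fcer2a but at 8.82 CPM for Cxcl13.

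Genes of other cells were set beside the members. Jchain, which joins secreted IgA in plasma cells, had r of 0.430 (Fcer2a, adjusted permutation p = 0.0896, rho = 0.158, adjusted permutation p = 0.583) to 0.690 (Ms4a1, adjusted permutation p = 0.000707, rho = 0.618, adjusted permutation p = 0.00886). Without RS10_708 the value for Fcer2a was 0.065 and that for Ms4a1 was 0.582 (adjusted permutation p = 0.0191), and Ms4a1 was the only one of the 8 whose r with Jchain still passed. With diet means removed, r over the 8 was 0.307 (Fcer2a) to 0.619 (Ms4a1). Without RS10_708 as well it was −0.029 to 0.535, and no permutation p was computed for these centred values. Cxcl13 had r of 0.697 with Jchain (adjusted permutation p = 0.00160, rho = 0.657, adjusted permutation p = 0.00419), and 0.647 without RS10_708 (adjusted permutation p = 0.00619). With diet means removed its r was 0.721, and without the 2 mice farthest from its median 0.632.

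For the T-cell gene Cd3e, r with the 9 members was 0.303 to 0.408, and no adjusted permutation p for r was below 0.114. By rank, 4 of the 9 passed, namely Cd22 (rho = 0.558, adjusted permutation p = 0.0232), Pax5 (rho = 0.547), Fcer2a (rho = 0.538) and Cxcr5 (rho = 0.537, adjusted permutation p = 0.0288). Without RS10_708 the lowest adjusted permutation p for r was 0.0592. By rank the same 4 genes still passed without that mouse, from Cd22 (rho = 0.570, adjusted permutation p = 0.0234) to Cxcr5 (rho = 0.549, adjusted permutation p = 0.0310). With diet means removed, r was 0.465 to 0.584 for the 8 genes other than Cxcl13, and 0.491 to 0.642 without RS10_708 as well. For Cxcl13 these values were 0.472 and 0.439. No permutation p was computed for centred values, and Cd3e was low, at 0.718 to 1.96 CPM. For Ccl20, a chemokine of the epithelium over follicles, r was 0.225 to 0.370, with no adjusted permutation p for r below 0.170. Epcam (r from −0.351 to 0.048) and Myh11 (0.025 to 0.263) did not pass either, with adjusted permutation p of at least 0.180 and 0.293.

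**Figure D5:**
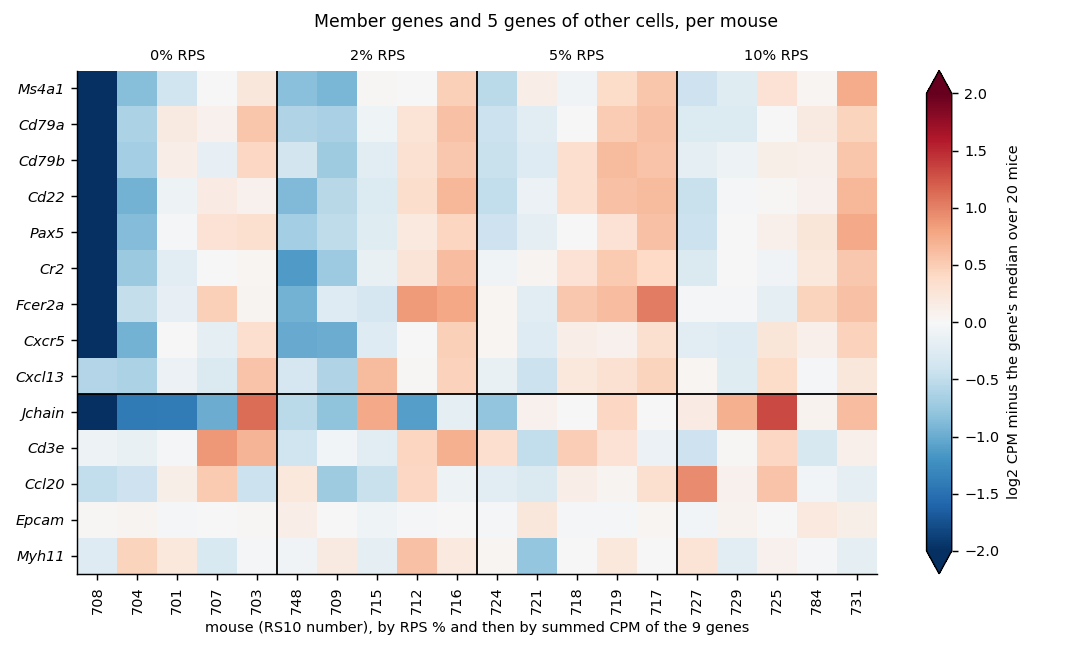
Log2 CPM minus the gene's median over 20 mice (colour, limited to −2 to 2) for the 9 genes and 5 genes of other cells (rows) in each mouse (columns, by diet and then by summed CPM). The 8 B-cell genes change together from mouse to mouse, Jchain follows a partly different order, and Epcam stays close to 0.

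The genes most like the members were sought among 15221 other genes that averaged 1 CPM or more, by Pearson's r over 20 mice between diet-centred log2 CPM and the diet-centred mean of the 9 members. Among the first 10 were Tnfrsf13c (r = 0.978), the receptor for the survival factor BAFF, Blk (0.977), a kinase of B-cell receptor signalling, and Fcrla (0.974). Next came H2-Ob (0.971), a subunit that modulates class II peptide loading, Siglecg (0.969), an inhibitory lectin of B cells, and H2-DMb2 (0.966). Acap1 (0.964), Fcmr (0.963), the receptor for the Fc part of IgM, and Bank1 (0.960), a B-cell scaffold protein, followed. Without the mouse with the highest sum, RS10_717, all 10 were again the first 10. Without RS10_708, 5 of them remained, and Hvcn1, Cd37, Fcrl1, Map4k1 and Cd72 took the other places. These genes were picked for their likeness, so the values are a description with no test.

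The wider lists gave the surroundings of these genes. All 25 other B-cell genes were measured, and edgeR called 0 at each RPS level, with 0 by DESeq2. At 10% RPS 2 of the 25 had an unadjusted p under 0.05, against 15.2% of all genes. Their log2 fold changes at 10% RPS had a median of 0.38, and 25 of 25 were above 0. Without RS10_708 the median was 0.16, 22 of 25 were above 0 and none had an unadjusted p under 0.05 (10.15% of all genes had). Blnk, an adaptor also found in other cells, was the most abundant at a mean of 120 CPM (log2 fold change 0.00, SE 0.09), and Cd37 was at 19.9 CPM (0.20, SE 0.31). Of 13 germinal centre genes 11 were tested, and 0 were called in any comparison by edgeR or DESeq2, with 2 at an unadjusted p under 0.05 at 10% RPS. Their median log2 fold change at 10% RPS was 0.16, and 0.08 without RS10_708. The most abundant were Gna13 (138 CPM) and Mki67 (111 CPM), which many dividing or signalling cells also express.

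Genes that organise lymphoid tissue were read next. Of 20 tested genes edgeR called 0 in any comparison, where it called 0.0391% of all genes at 10% RPS and 2.10% in the trend. At 10% RPS 3 of the 20 had an unadjusted p under 0.05, against 15.2% of all genes. The log2 fold changes of the 20 genes at 10% RPS had a median of 0.01 (0.00 without RS10_708). DESeq2 called 0 at 2, 5 and 10% RPS and, in the linear trend, where it called 6.02% of all genes, 2 of the 20. These were Tnfrsf11a, the receptor RANK (DESeq2 log2 slope 0.02 per percent RPS, adjusted p = 0.0135), and Relb, a subunit of NF-kB (slope −0.03, adjusted p = 0.0292). Their edgeR adjusted p was 0.0580 and 0.0589, and without RS10_708 their DESeq2 adjusted p was 0.0405 and 0.0835. Ccl21a, a chemokine of T-cell zones and lymphatics, was at 28.8 ± 4.99 CPM at 0% and 21.7 ± 7.02 CPM at 10% RPS (log2 fold change −0.42, SE 0.18, edgeR adjusted p = 0.273), and without RS10_708 the log2 fold change was −0.41 (SE 0.19, edgeR adjusted p = 0.480). Ltb, a cytokine that induces follicles, was at 5.41 ± 1.64 and 5.72 ± 1.06 CPM. Mfge8 (139 CPM) and Ltbr (120 CPM) were the most abundant, with log2 fold changes of −0.03 and −0.04 at 10% RPS. Among 9 genes of follicle-associated epithelium and M cells 0 were called in any comparison by edgeR or DESeq2. At 10% RPS 0 of these 9 had an unadjusted p under 0.05, against 15.2% of all genes. Their median log2 fold change at 10% RPS was 0.17 (0.15 without RS10_708). Their most abundant members were Pglyrp1 (166 CPM) and Anxa5 (99.8 CPM). Gp2 reached 69.7 CPM in 1 mouse, RS10_721, which held pancreatic transcripts.

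Of 17 T-cell genes 0 were called in any comparison by edgeR or DESeq2, with 2 at an unadjusted p under 0.05 at 10% RPS, and the median of their log2 fold changes at 10% RPS was 0.07 (0.04 without RS10_708). Tcf7 and Cd4 were the most abundant at 6.79 and 6.71 CPM. Of 12 plasma cell genes other than immunoglobulins, 0 were called at 10% RPS by edgeR and 1 by DESeq2 (1.21% of all genes). At that level 5 had an unadjusted p under 0.05 (15.2% of all genes had one), and the median log2 fold change was 0.67. Without RS10_708 both tools called 0 at 10% RPS, 3 had an unadjusted p under 0.05 and the median was 0.56. The gene that DESeq2 called was Tnfrsf17, the plasma cell receptor BCMA (DESeq2 log2 fold change 1.23, adjusted p = 0.0279, and 0.136 without RS10_708). It also passed the linear trend (log2 slope of 0.13 per percent RPS, SE 0.03, edgeR adjusted p = 0.0279), and this call was lost without RS10_708 (edgeR adjusted p = 0.0665), in 6 other fits that each left out 1 mouse (RS10_701, RS10_707, RS10_725, RS10_729, RS10_731 or RS10_784) and with mice grouped by the treatment label (0.249). Over 27 alternative edgeR fits it was called in 17. DESeq2 also called the trend of Irf4, a transcription factor of plasma cells (adjusted p = 0.0405, and 0.0799 without RS10_708). In the trend DESeq2 called 6.02% of all genes. Jchain had a mean of 210 ± 232 CPM at 0% and 450 ± 168 CPM at 10% RPS (log2 fold change 1.10, SE 0.53, edgeR adjusted p = 0.338, and 0.88, SE 0.53, 0.592 without RS10_708), and its level in RS10_708, 67.6 CPM, was the lowest of the 20 mice. In the epithelial list of 7 genes, Slc26a3, a chloride and bicarbonate exchanger of the colon surface, and Krt20, a keratin of mature colonocytes, passed the trend (edgeR adjusted p = 0.00423 and 0.0249), and Slc26a3 passed the test of any diet difference (0.0186). Over all genes edgeR called 2.10% in the trend and 0.0727% in the test of any diet difference. The trend of Krt20 was lost without RS10_708 (edgeR adjusted p = 0.0569), without RS10_784 (0.0901), without the 3 mice with disagreeing labels (0.0698) and by the treatment label (0.212), and was called in 22 of 27 alternative edgeR fits. That of Slc26a3 held with each mouse left out (edgeR adjusted p = 0.0208 at most) and was lost by the treatment label (0.168). The call of any diet difference for Slc26a3 held without RS10_708 (0.0423) and was lost without RS10_725, RS10_729, RS10_731 or RS10_784, without the 3 mice with disagreeing labels (0.231) and by the treatment label (0.797). The log2 fold change of Slc26a3 at 10% RPS was 0.57 ± 0.10 (SE, adjusted p by edgeR 0.0155), below the fold threshold, and 0.60 ± 0.11 without RS10_708 (adjusted p by edgeR 0.0371), which was called. DESeq2 called Krt20 at 10% RPS (adjusted p = 0.00584, and 0.0475 without RS10_708) and in the test of any diet difference (0.00481 and 0.0155). The most abundant genes of these lists were Txndc5 (234 CPM) beside Jchain among plasma cell genes, and Krt8 (5745 CPM) and Epcam (1559 CPM) in epithelium. Of the lists for smooth muscle (6 tested), blood (5), adipose tissue (5), pancreas (3) and anal squamous epithelium (3), 0 genes were called in any comparison by edgeR or DESeq2, with or without RS10_708. Their most abundant genes were Myh11 (2687 CPM) and Acta2 (2062 CPM) in smooth muscle, Hbb-bs (27.7 CPM) and Hba-a1 (7.42 CPM) in blood, and Cidec (8.92 CPM) and Adipoq (6.06 CPM) in adipose tissue. Those of pancreas were Cela1 (513 CPM) and Pnlip (60.1 CPM), and those of anal squamous epithelium were Krt10 (4.16 CPM) and Krt14 (2.49 CPM).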

How the data were processed

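The authors trimmed their single-end reads by quality, mapped them to GRCm39 with CLC Genomics Workbench and deposited unnormalised counts per gene and mouse. Which gene annotation was counted, and how reads with more than 1 possible gene were treated, is not given in the sources used here. Members and lists were chosen with earlier results of these data known. Of 26619 identifiers 26338 matched the GENCODE annotation. Counts were filtered with filterByExpr (minimum count 10), scaled by trimmed mean of M-values and tested with the quasi-likelihood test of edgeR 4.0.16 in R 4.3.3, in 1 fit over the 4 diets, and p-values were adjusted by Benjamini-Hochberg across the tested genes. Calls needed an adjusted p no higher than 0.05 and a fold change of 1.5 or more, and the trend and any-difference tests had no fold threshold. DESeq2 1.42.0, which the authors used, was an alternative. CPM used the scaled library sizes and log2 CPM a prior count of 2.

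Total counts set the precision: 3 counts were at most 0.163 CPM. Alternatives covered scaling, the filter, immunoglobulin-free library sizes, labels, thinning, the diets in the fit, the prior count and each mouse left out. Fits by DESeq2 without RS10_708, and by edgeR without 4 libraries (RS10_708, RS10_715, RS10_721 and RS10_784), were chosen after the data were seen. The procedure was tested on simulated counts. Within a diet, 40 pairs of mice had a chi-square per degree of freedom over genes of 7.53 to 50.7, so no pair looked like the same library. Each mouse is a separate animal. From each list the text names the genes called in any comparison (up to 6) and the 2 with the highest mean CPM. Ccl21a, Ltb, Gp2 and Ighd were named outside this rule, after their values were seen. Upstream windows and gene positions came from GENCODE vM39 on GRCm39. Some results within these families of tests are not reported here.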

Additional observations from a re-analysis of the deposited data

How the results depend on the processing

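In no alternative was any of the 9 genes called, at 2, 5 or 10% RPS (30 alternatives each), in the trend or in the test of any diet difference (29 each), and the lowest adjusted p over them was 0.246, at 10% RPS in edgeR without RS10_703. The direction changed for Cd79a at 10% RPS: its log2 fold change was -0.063 without RS10_708 in edgeR, -0.061 without it in DESeq2 and -0.10 in edgeR without 4 libraries, and leaving out each mouse in turn gave -0.063 to 0.47. The median within-diet SD percentile of the 9 genes, 97.7, became 84.3 without RS10_708, and was 84.3 to 98.1 over all mice left out in turn. Of the 10 genes most like the members, 5 remained without RS10_708. Other alternatives kept every direction at 10% RPS. Over all genes, calls at 10% RPS were 7 by edgeR and 210 by DESeq2, and 5 to 189 in edgeR with each mouse left out. Trend calls over all genes were 375 by edgeR and 985 by DESeq2, 24 to 1148 in edgeR with each mouse left out and 91 without RS10_708, and calls of any diet difference were 13 and 349, and 0 to 42 in edgeR with each mouse left out. Grouped by the treatment label, edgeR called no gene in any comparison, and without the 3 mice with disagreeing labels it called 56 in the trend and 0 in the others. No paired analysis was possible because mouse numbers are unique to an animal. Every member had at least 15 reads in each mouse, and fold changes within the intervals given are compatible with the data.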

Other observations

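The balance among the B-cell genes also varied between mice. The ratio of Ms4a1 to Fcer2a in CPM ran from 0.729 (RS10_712, 2% RPS) to 1.81 (RS10_725, 10% RPS), with 1.68 in both RS10_715 (2% RPS) and RS10_721 (5% RPS), so that high and low ratios were found at 2% RPS. This ratio was chosen after the values were seen, and its relation over 20 mice to 4 genes was computed, with p-values adjusted over the 4. Of the 8 B-cell genes Ms4a1 already had the highest r with Jchain and Fcer2a the lowest. The relation of the ratio to Jchain is therefore not a separate result. With Jchain, r of the log2 ratio was 0.468 (adjusted permutation p = 0.0753) and rho was 0.564 (adjusted permutation p = 0.0415), and r fell to 0.279 without the 2 mice farthest from its median (RS10_715 and RS10_725), so that r over 20 mice rests partly on those mice. It was 0.651 without RS10_708, 0.548 with diet means removed and 0.692 with both. With Myh11 of smooth muscle, r was −0.566 (adjusted permutation p = 0.0342) and rho −0.438 (adjusted permutation p = 0.110), and r was −0.654 without those 2 mice and −0.548 without RS10_708. Of the 8 B-cell genes Ms4a1 had the lowest r with Myh11 (0.025) and Fcer2a the highest (0.263). The relation of the ratio to Myh11 is therefore not a separate result either. RS10_721, with a ratio of 1.68, had the lowest Myh11 of the 20 mice (log2 CPM 10.6), and r without RS10_721 was not computed. With Cxcl13 (r = 0.212, adjusted permutation p = 0.365, rho = 0.253, adjusted permutation p = 0.281) the ratio did not pass.

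The ratio of Cxcl13 to Ms4a1 was 7.33 in RS10_708 and 0.881 to 2.01 in the other 19 mice. Ighd, the heavy chain of IgD on resting B cells, was at 3.98 CPM in RS10_708. The 5 mice fed 0% RPS, RS10_708 included, had a median of 27.9 CPM, and the lowest level in the other diets was 17.1 CPM. Ccl21a was at 29.1 CPM in RS10_708, the median at 0% RPS. On the CPM scale, the gap of the most extreme mouse to its neighbour was compared with the limit of Dixon's test for 5 samples. It was within that limit in each of the 36 combinations of member and diet. Dixon's test was not run on log2 CPM, so this result holds for CPM only. On log2 CPM, Cr2 was at −0.23 in RS10_708 and at 2.35 to 3.13 in the other mice fed 0% RPS.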
